A study of Mus musculus with 48 samples.

Results

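The data described here set 9 epididymal fat pads of mice fed a sucrose/oleate diet against 8 of mice fed chow, 17 of the 48 samples in the series. Each sample was total RNA of epididymal fat, the pad next to the testis, from an inbred mouse strain, C3H/HeOuJ, whose Toll-like receptor 4 is functional. The samples were chosen by their labels, and every endogenous gene of the panel was considered: 547 were measured and 491 had a mean count of at least 10 over the 48 samples and were tested, while 56 fell under that minimum. In the sucrose/oleate diet 42% of calories came from carbohydrate, given as sucrose, and 42% from fat, given as oleate, a monounsaturated fatty acid. The chow was a commercial diet whose make-up is not given in the sources used here, so the groups differed in more than these 2 ingredients. Both groups ate freely for 6 months. Where the diet is set against others of the series, these are starch/oleate (n = 9), sucrose/palmitate (n = 8) and starch/palmitate (n = 7), with the same shares of calories, strain, tissue and feeding time and with palmitate as a saturated fatty acid. No age is given in the sources used here, and the labels do not say whether a sample is 1 animal. The p-values of genes therefore set a difference against the spread between samples, estimated over all 48, and not between known animals.

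White fat stores lipid in adipocytes and also holds vessels, fibroblasts and immune cells. Macrophages are its most numerous leukocytes in obesity, where they gather around dying adipocytes and take up lipid; such cells carry the integrin CD11c (Itgax), the tetraspanin CD9 and the lipid receptor TREM2, while macrophages resident along vessels in lean fat carry scavenger receptors such as CD163. Adipocytes are marked by the transcription factor PPARgamma and by adipsin (Cfd), a serine protease that activates the alternative pathway of complement.

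RNA was counted with barcoded probes and no amplification (NanoString nCounter Mouse Immunology panel). Counts over the gene probes summed to between 455563 and 722254 per library on sucrose/oleate and between 599327 and 691270 on chow. Negative control probes, which have no target, had a mean count of 6.71 and 7.48. All values below are scaled counts, that is counts divided by the geometric mean of 14 reference genes in the same library and put back on a common scale. The markers of the labelled tissue were present: Cd36, the fatty acid transporter of adipocytes, ran from 57617 to 73027 (median 69178) on sucrose/oleate and from 64350.0 to 90905 (median 74926) on chow. Defb1, a defensin of epithelium, stood at 221 in chow replicate 4 and at no more than 31.4 in the other chow libraries.

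Some libraries and one assay control set these groups apart from each other and bear on the results below. Positive controls are RNAs added to each assay in known amounts, so their ratio does not depend on the tissue; that of control A over control B was 2.99 ± 0.0482 (SD, n = 9) on sucrose/oleate and 3.33 ± 0.0726 (n = 8) on chow. No library of one group reached the range of the other, and the difference of -0.335 had a two-sided exact permutation p of 8.2e-05, the smallest that 9 against 8 can give. The ratio and the diet cannot be told apart in this comparison. It was also fitted with the ratio as a covariate over all 48 libraries. That fit takes its slope from differences between libraries of the same diet and carries it across the difference of -0.335. The SD within sucrose/palmitate, 0.187, was larger than in the 2 groups compared. A call kept or lost with the covariate therefore does not separate the ratio from the diet. Among the reference genes, Gusb, a lysosomal enzyme, was higher on sucrose/oleate (1.09 ± 0.20 on the log2 scale), and Alas1, Sdha, Hprt and G6pdx were lower by 0.51 to 0.33, so 5 of 14 passed. Chow replicate 4 was the lowest chow library for 175 of the 491 genes, and sucrose/oleate replicate 2 was the highest of its group for 188. The part of the control ratio, of the reference genes and of these 2 libraries in the results was not tested beyond the values given with them.

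Against chow, 180 of the 491 genes passed at an adjusted p of 0.05, which is 36.7%. Of these, 142 were higher on sucrose/oleate (28.9% of the genes tested) and 38 were lower (7.74%). The split depended on the scaling: with trimmed mean of M values (TMM) scaling it was 106 higher and 76 lower, and with the positive controls in place of the reference genes 177 and 12. The median difference of all genes moved with it, from 0.19 to 0.01 and 0.38 on the log2 scale. When the control ratio entered the fit as a covariate, 31 genes passed (6.31%), 21 of them higher (4.28%) and 10 lower (2.04%). These held 20 of the 142 rises and 9 of the 38 falls, while 179 of the 180 kept their sign. Of the 104 genes named below as risen or fallen, 28 passed with the covariate: Bcap31, Ccl24, Ccl7, Cd1d1, Cd209g, Cd9, Cdkn1a, Cfd, Clec5a, Crlf2, Cx3cr1, Icam1, Il13ra1, Itgax, Kir3dl1, Klra8, Lair1, Plau, Pparg, Ptpn6, Runx1, Slamf7, Tgfb3, Tgfbr1, Tlr1, Tnfaip3, Tnfrsf11a and Tslp. The other 76 lost their call with it, and for 21 of these the difference was also smaller by over 1.5 times: Bax, C1qa, C1qb, C1ra, C8g, Casp1, Cd3e, Cd8b1, Cdh5, Cxcr6, Fcgr4, Il10rb, Il1rl1, Itgb1, Klrd1, Mapk11, Nox4, Npc1, Syk, Tlr8 and Tmem173. With TMM scaling 9 of the named rises lost their call (Bax, C1ra, Cd3e, Csf3r, Ifnar1, Itgb1, Stat2, Tnf and Vcam1), as they did with DESeq2, where Cxcl13 and Ppbp were lost too. With positive control scaling 12 of the named falls lost theirs (Bcap31, C2, Ccrl1, Cdh5, Fas, Itga6, Map4k2, Mapk11, Notch1, Tgfb3, Tlr5 and Tslp), with differences then of -0.79 to -0.27 (adjusted p = 0.054 to 0.24). Libraries did not overlap between the groups for 26 of the higher genes (5.3% of those tested) and for 1 of the lower (0.204%).

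**Figure D1:**
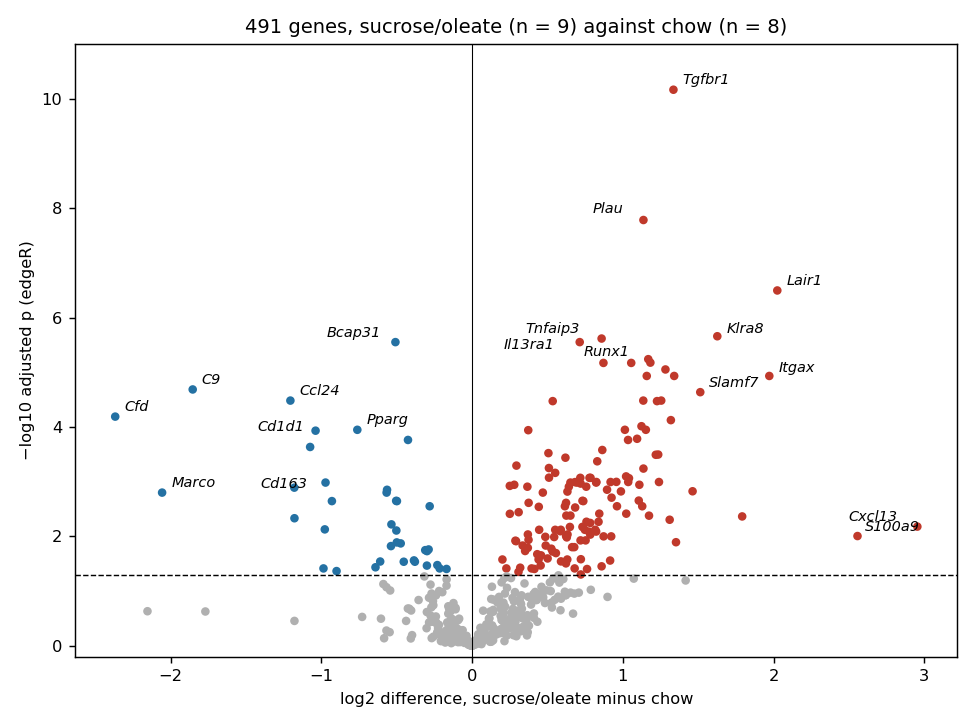
Each point is 1 of the 491 genes, with the log2 difference of sucrose/oleate minus chow on the horizontal axis and −log10 of the adjusted p on the vertical axis; red and blue points passed 0.05, the dashed line. Tgfbr1, Plau and Lair1 stand highest among the genes that rose, Cfd and Marco lie farthest to the left among those that passed, and Cxcl13 and S100a9 lie far to the right at modest p-values.

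Tgfbr1, Plau and Lair1 had the smallest p-values. Tgfbr1, the type I receptor of transforming growth factor beta, was counted at 1830.1 to 2940.5 (median 2461) on sucrose/oleate and at 664 to 1299 (median 988) on chow. Every sucrose/oleate library lay above every chow library, and the gene rose by 1.34 ± 0.13 (log2 ± SE here and below, adjusted p = 6.9e-11). Plau, the urokinase that activates plasminogen at the cell surface, ran at 2026 to 2993 (median 2649.7) against 951 to 1398 (median 1157), again without overlap, a rise of 1.14 ± 0.13 (adjusted p = 1.6e-08). Lair1 encodes a collagen receptor that inhibits leukocytes. It was counted at 500.4 to 914 (median 698) on sucrose/oleate and 46.5 to 296 (median 172) on chow, 4.07-fold higher (log2 2.02 ± 0.27, adjusted p = 3.2e-07), and the lowest treated library stood well above the highest control. With the control ratio as a covariate these 3 genes still passed, at 1.17 ± 0.19, 1.14 ± 0.20 and 1.69 ± 0.39.

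**Figure D2:**
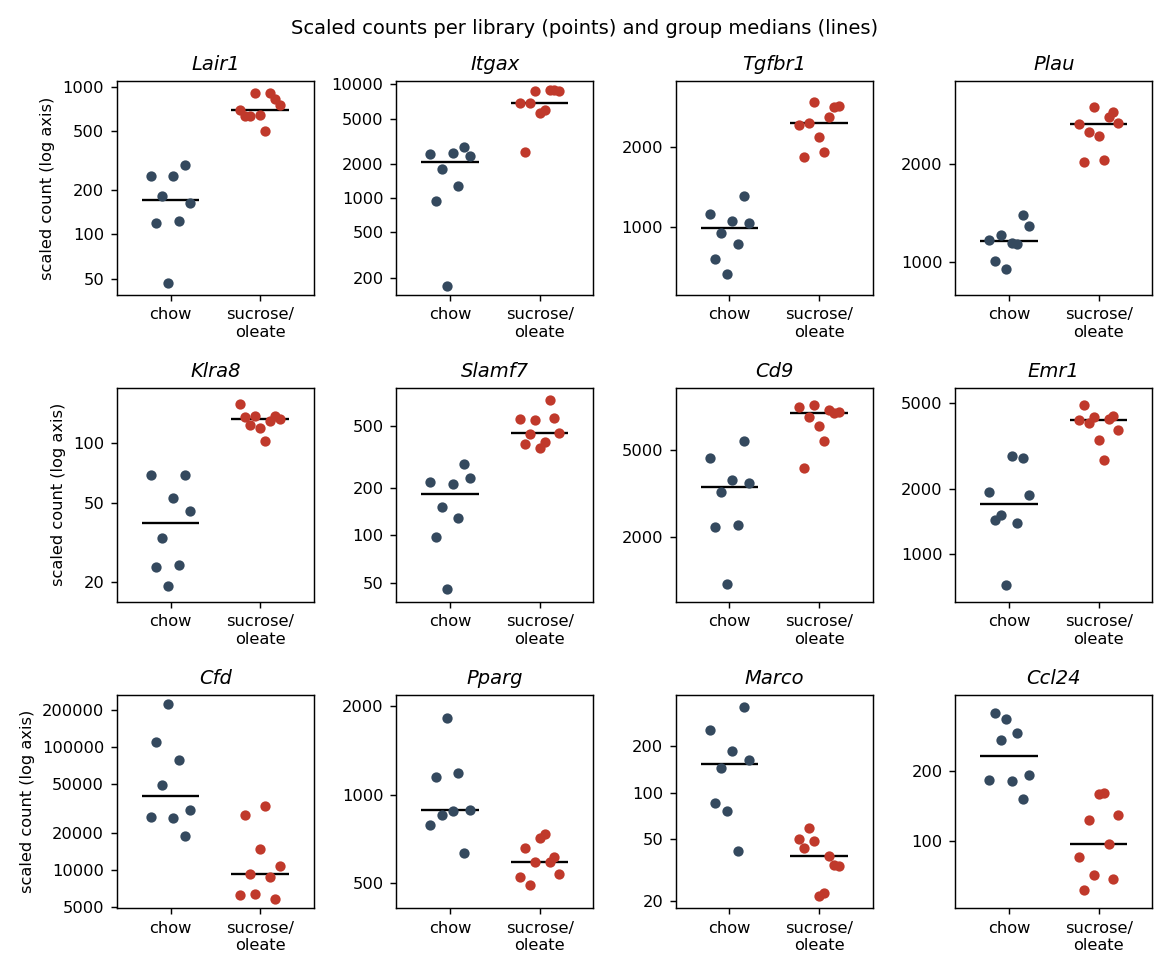
Scaled counts on a log axis for 12 genes, with 1 point per library (8 chow, 9 sucrose/oleate) and a line at each group's median. The groups do not overlap for Lair1, Tgfbr1, Plau, Klra8 and Slamf7, and chow replicate 4 is the lowest chow point for Lair1, Itgax, Tgfbr1, Plau, Klra8, Slamf7, Cd9 and Emr1.

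Slamf7 and Klra8 showed the same separation. Slamf7, a receptor of the SLAM family on macrophages and lymphocytes, was counted at 362 to 732 (median 449) against 45.3 to 288 (median 183) and rose by 1.51 ± 0.26 (adjusted p = 2.3e-05). The probe named Klra8 is assigned to the natural killer receptor Ly49H, which activates the cell. Its counts were 103 to 159 (median 132) on sucrose/oleate and 19.1 to 69.4 (median 39.5) on chow, a rise of 1.63 ± 0.24 (adjusted p = 2.2e-06) that also passed with the covariate (adjusted p = 0.016). The Ly49 genes are related copies, and whether the probe reads only 1 of them was not tested. Nor was it tested whether it reads Ly49H or another copy in C3H/HeOuJ. No other Ly49 probe in the list of natural killer genes rose: each either did not pass or fell under the minimum count. The other non-overlapping genes with a covariate p under 0.05 were Runx1, Ptpn6, Tnfaip3, Tnfrsf11a and Crlf2, given with their groups below.

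To show what precedes genes that moved, the 250 bases before the start of 4 of them are printed from RefSeq (GRCm38.p6), each on its own strand: 2 whose libraries lay above all of chow, and a macrophage and an adipocyte gene that fell. Capitals mark GAGGAA, the core of the site of PU.1, the factor that specifies macrophages, and TTGCNNAA, a site of C/EBP factors, both searched on both strands.

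Lair1 (chr7:4063205-4063454, minus strand): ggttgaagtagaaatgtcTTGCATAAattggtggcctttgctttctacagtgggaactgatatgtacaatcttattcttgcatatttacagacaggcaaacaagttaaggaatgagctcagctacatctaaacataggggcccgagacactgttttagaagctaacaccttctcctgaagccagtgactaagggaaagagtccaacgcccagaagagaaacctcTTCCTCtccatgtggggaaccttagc

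Klra8 (chr6:130129899-130130148, minus strand): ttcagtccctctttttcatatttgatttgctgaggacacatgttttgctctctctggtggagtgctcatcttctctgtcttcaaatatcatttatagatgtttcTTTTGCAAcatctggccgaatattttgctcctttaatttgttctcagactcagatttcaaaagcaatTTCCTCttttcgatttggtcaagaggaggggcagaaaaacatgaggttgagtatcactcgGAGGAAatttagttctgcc

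Marco (chr1:120505025-120505274, minus strand): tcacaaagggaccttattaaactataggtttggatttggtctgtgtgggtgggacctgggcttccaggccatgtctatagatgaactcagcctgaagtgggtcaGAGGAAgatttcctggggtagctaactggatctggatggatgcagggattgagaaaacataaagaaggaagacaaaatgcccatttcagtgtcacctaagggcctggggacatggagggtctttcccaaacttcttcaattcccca

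Pparg (chr6:115421816-115422065, plus strand): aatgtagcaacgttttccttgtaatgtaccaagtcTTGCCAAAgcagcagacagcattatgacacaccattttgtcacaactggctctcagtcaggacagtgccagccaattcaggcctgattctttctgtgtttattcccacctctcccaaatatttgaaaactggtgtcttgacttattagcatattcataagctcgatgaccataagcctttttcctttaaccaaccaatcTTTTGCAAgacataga

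Klra8 has 2 starts in the table and Pparg 3, and those printed were chosen with their matches known; of the other Pparg starts 1 held neither motif and 1 held GAGGAA alone. GAGGAA was found in 35% of the 137 windows of genes that rose, in 27.3% of the 33 windows of genes that fell, in 30.5% of the 455 windows of all genes tested and in 23.3% of the 32851 windows of all genes in the table. For TTGCNNAA these shares were 14.6%, 6.06%, 10.8% and 9.56%. The interferon-stimulated response element, also searched on both strands, was in 7.3%, 3.03%, 4.84% and 2.98%. Matches of different motifs can overlap. Windows were at hand for 109 of the 142 genes that rose and 28 of the 38 that fell, some with several starts. A match describes letters only, and whether C3H/HeOuJ has the same bases was not tested.

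Most macrophage genes rose. Of the 19 macrophage genes tested, 14 rose (73.7%, against 28.9% of all genes tested), none fell and 5 did not pass. The median difference was 0.92 against 0.19 over all genes tested. In whole tissue, more macrophages and more RNA per macrophage cannot be told apart. Emr1, which encodes the F4/80 antigen, was counted at 2714 to 4910.5 (median 4184) on sucrose/oleate and 721 to 2844 (median 1700.4) on chow. In 8 of 9 treated libraries it exceeded every chow library, and the rise was 1.14 ± 0.25 (adjusted p = 0.00058). Tyrobp, the adaptor DAP12 that passes on signals of TREM2 and other receptors, reached 11552 to 19517 (median 16510.0) against 1973 to 11582 (median 7205) and rose by 1.11 ± 0.27. Csf1r, the receptor of the macrophage growth factor, and Itgam, the integrin CD11b, did not pass, with differences of 0.27 ± 0.18 and 0.40 ± 0.22, nor did Ccr2, the receptor that draws monocytes into tissue (-0.24 ± 0.17). The ranges of Ccr2 overlapped widely, at 544 to 1298 (median 843) on sucrose/oleate and 452 to 1380.3 (median 1127) on chow. With the ratio as a covariate Cx3cr1, the fractalkine receptor, was the 1 gene of the macrophage list that passed (1.18 ± 0.32, adjusted p = 0.019), and Emr1 stood at 0.89 ± 0.38 (adjusted p = 0.16).

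Genes of lipid-associated macrophages rose as well. Of 4 tested, 3 rose (75%, against 28.9% of all genes tested), with a median over the 4 of 1.15. Itgax was counted at 2559 to 8908 (median 6826) on sucrose/oleate and 169 to 2808 (median 2073) on chow. Only sucrose/oleate replicate 2, at 2559, fell within the chow range, and the rise of 1.97 ± 0.33 (adjusted p = 1.2e-05) became 1.80 ± 0.29 without chow replicate 4, where the gene stood at 169. Cd9 ran at 4107 to 7940.3 (median 7354) against 1224 to 5439.8 (median 3369.8) and rose by 1.06 ± 0.17, and Trem2 rose by 1.24 ± 0.29 from a chow median of 796 to 1928. Cd36 belongs to this list and to the adipocyte list, and did not pass (-0.16 ± 0.14). Itgax and Cd9 passed with the covariate, and Trem2 did not (adjusted p = 0.098).

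Some receptors of antibodies and some lectin receptors of myeloid cells rose as well. Among 9 Fc receptor genes 4 rose (44.4%, against 28.9% of all genes tested). These were the activating receptors Fcgr4 (1.46 ± 0.36), Fcgr1 (1.11 ± 0.29) and Fcgr3 (0.82 ± 0.24), and their common chain Fcer1g (0.78 ± 0.24). Fcgr2b, the inhibitory receptor of the family, did not pass (-0.15 ± 0.19). Fcgr4 was counted at 206 to 617 (median 319.8) against 27.4 to 243 (median 128) and stood at 0.92 ± 0.53 with the covariate (adjusted p = 0.30). Fcgr1 reached 1147 in sucrose/oleate replicate 2, and without that library its difference was 0.71 ± 0.24 (adjusted p = 0.020). Of 9 myeloid inhibitory and C-type lectin receptors 5 rose (55.6%, against 28.9% of all genes tested). They were led by Lair1 and by Clec5a, an activating lectin that uses DAP12 (1.16 ± 0.19, adjusted p = 1.2e-05). The inhibitory receptor Lilrb3 rose by 0.75 ± 0.24.

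Of 22 genes of phagocyte signalling, which act downstream of such receptors, 11 rose, 2 fell and 9 did not pass. The share that rose was 50%, against 28.9% of all genes tested, and the share that fell 9.09%, against 7.74%. Ptpn6, the phosphatase SHP-1 that acts behind inhibitory receptors, was counted at 584 to 1046 (median 918) against 153 to 572 (median 345) with no overlap, a rise of 1.28 ± 0.21 (adjusted p = 8.9e-06). Ptprc, the CD45 phosphatase carried by all leukocytes, ran at 1534 to 2254 (median 2079) against 298 to 1327 (median 890.1) and rose by 1.15 ± 0.23 (0.85 ± 0.33 with the covariate, adjusted p = 0.12). Syk, the kinase bound by activating receptors, rose by 0.65 ± 0.19, and Btk by 0.78 ± 0.23. Mapk11 and Map4k2, kinases of the stress pathway, fell by 0.64 ± 0.25 and 0.53 ± 0.16; Mapk11 lost its call without chow replicates 3, 4, 6 or 8 or sucrose/oleate replicates 1, 3, 7 or 8 (adjusted p up to 0.084).

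In contrast to these, the genes of resident macrophages fell. Of 5 tested, 4 fell (80%, against 7.74% of all genes tested) and Maf, at -0.08 ± 0.14, did not pass. The median over the 5 was -1.07. Cd163, the haemoglobin scavenger receptor, was counted at 197 to 1228 (median 362) on sucrose/oleate and 624.7 to 1499 (median 884) on chow. In 8 of 9 treated libraries it was below every chow library, the exception being replicate 2, and it fell by 0.97 ± 0.23 (adjusted p = 0.0010). Ccl24, an eosinophil-drawing chemokine made by such macrophages, ran at 61.6 to 159.7 (median 96.9) against 151 to 352 (median 230.4), and its fall of 1.21 ± 0.22 became 1.56 ± 0.31 with the covariate (adjusted p = 0.0018). Cd209g, a lectin, fell by 1.07 ± 0.22, from 232 to 430.4 (median 287) on chow to 78.7 to 259.7 (median 129). Marco, a scavenger receptor for bacteria, was counted at 21.5 to 59.4 (median 38.96) against 41.8 to 357 (median 153), a fall of 2.06 ± 0.52 (adjusted p = 0.0016). Marco and Cd163 did not pass with the covariate (adjusted p = 0.075 and 0.087), although their differences, -2.44 ± 0.85 and -0.98 ± 0.35, were not smaller in size.

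**Figure D3:**
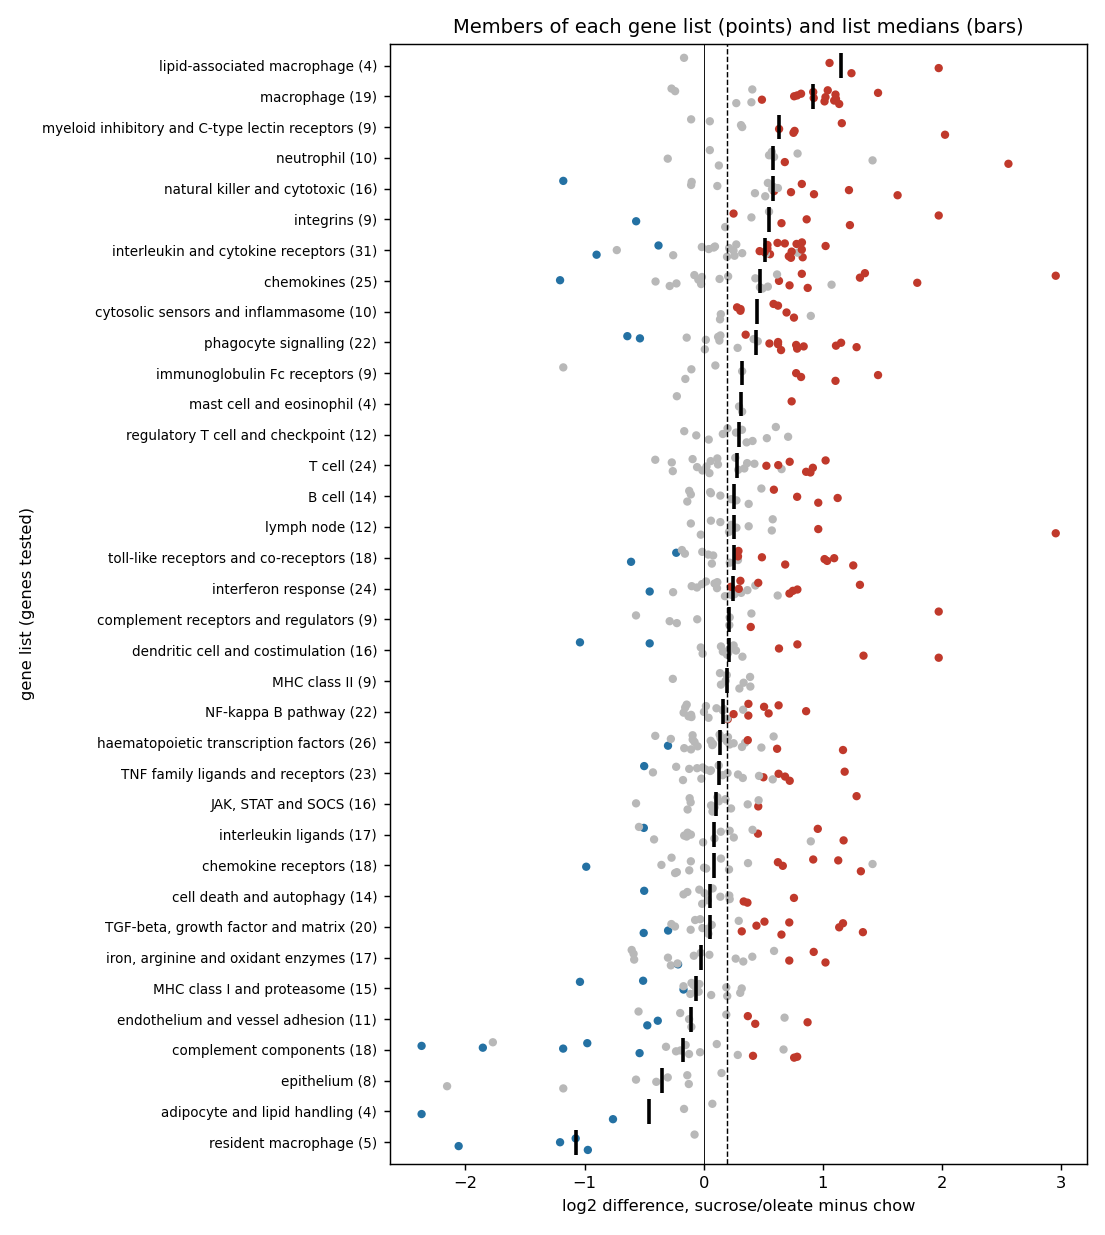
Log2 difference of sucrose/oleate minus chow for every tested member of 36 gene lists; red points rose and blue points fell at an adjusted p under 0.05, grey points did not pass, black bars are list medians and the dashed line is the median of all 491 genes (0.19). Medians run from -1.07 for resident macrophage genes to 1.15 for lipid-associated macrophage genes.

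Of 4 adipocyte genes 2 fell (50%, against 7.74% of all genes tested). Cfd was the most reduced gene that passed, at 5851 to 32851 (median 9199) on sucrose/oleate and 18982 to 222161 (median 40102) on chow. Of 9 treated libraries 7 lay below every chow library, and the fall was 2.37 ± 0.44 (adjusted p = 6.5e-05). Chow replicate 4 held 222161, the highest count, and without it the difference was -1.84 ± 0.41 (adjusted p = 0.00082). Pparg ran at 492 to 734 (median 588) against 633 to 1826 (median 883) and fell by 0.76 ± 0.15 (adjusted p = 0.00011). Cd36 (-0.16 ± 0.14) and Cebpb, a transcription factor of fat and myeloid cells (0.07 ± 0.10), did not pass, and the sign of each turned with another scaling. Cfd and Pparg passed with the covariate (-2.86 ± 0.69 and -0.79 ± 0.23).

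Complement genes moved both ways. Of 18 components tested 3 rose (16.7%, against 28.9% of all genes tested) and 5 fell (27.8%, against 7.74%). The list's median of -0.17 became 0.02 with positive control scaling. The rises were in the classical starter C1q: C1qa was counted at 4251 to 12347 (median 5975) against 3475 to 4633 (median 3814) (0.76 ± 0.22), C1qb rose by 0.78 ± 0.24, and C1ra, the protease bound to C1q, rose by 0.41 ± 0.16. C1ra lost its call without chow replicates 1, 5 or 8 or sucrose/oleate replicates 2, 3, 7 or 9 (adjusted p up to 0.11). C1qa reached 12347 in sucrose/oleate replicate 2 and stood at 0.45 ± 0.33 with the covariate (adjusted p = 0.40). C3, the central component, ran at 5329 to 14026 (median 6715) and 6131 to 8985 (median 7475) and did not pass (-0.03 ± 0.16). The falls, beside Cfd, were in C2 (-0.54 ± 0.18), the lectin pathway protease Masp2 (-0.98 ± 0.29) and the late components C8g (-1.18 ± 0.29) and C9 (-1.85 ± 0.32). C2 lost its call without chow replicate 2 (adjusted p = 0.052) and Masp2 without chow replicate 1 (adjusted p = 0.057). C8g was the 1 gene whose libraries were all below those of chow, at 14.8 to 26.9 (median 22.5) against 31.8 to 67.2 (median 47.9), but with the covariate it stood at -0.45 ± 0.37 and did not pass (adjusted p = 0.47). C9, at 5.69 to 17.6 (median 9.48) against 14.3 to 111 (median 21.3), came close to the negative control counts on sucrose/oleate, so its fold is poorly bounded. Of 9 complement receptors and regulators 2 rose (22.2%, against 28.9% of all genes tested), among them Itgax.

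In the growth factor and matrix list 8 of 20 genes rose (40%, against 28.9% of all genes tested), among them the receptor Tgfbr1 and Plau. The 2 that fell were 10% of the list, against 7.74% of all genes tested. Runx1, a transcription factor of blood cells that also acts with Smad proteins, was counted at 569.7 to 861 (median 788) against 155 to 509.9 (median 338) with no overlap, a rise of 1.17 ± 0.18 (adjusted p = 5.8e-06). Among the ligands, Tgfb1 rose by 0.65 ± 0.16 and Tgfb3 fell by 0.50 ± 0.13. Tgfb3 was counted at 282 to 464 (median 340.3) on sucrose/oleate and 403 to 633 (median 491) on chow. Pdgfb, a growth factor of vessel-wall cells, ran at 1135 to 1605 (median 1339.5) against 895 to 1119 (median 1017), narrow ranges that did not overlap, and rose by 0.44 ± 0.12 (adjusted p = 0.0029). Nox4, an oxidase that makes hydrogen peroxide, rose by 0.72 ± 0.17. Plaur, the receptor of urokinase, did not pass (-0.24 ± 0.20), nor did fibronectin, Fn1 (-0.27 ± 0.22). The list's median was 0.05, and -0.11 with TMM scaling.

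Integrins and vessel genes moved both ways. Of 9 integrins 5 rose (55.6%, against 28.9% of all genes tested) and 1 fell (11.1%, against 7.74%). Itga4, the leukocyte alpha 4 chain, was counted at 642 to 1053 (median 953) against 172 to 541 (median 358) and rose by 1.23 ± 0.22 without overlap (0.93 ± 0.33 with the covariate, adjusted p = 0.073). Its partner Itgb1 rose by 0.25 ± 0.06 (adjusted p = 0.0012) with counts of 8900.1 to 10195 (median 9700.3) against 7434 to 8384 (median 8182); this small shift was lost with TMM scaling (adjusted p = 0.47). Itga6, a laminin receptor of vessel and epithelial cells, fell by 0.57 ± 0.14, a call lost with positive control scaling (-0.35 ± 0.17, adjusted p = 0.083). Among 11 endothelial and adhesion genes 3 rose (27.3%, against 28.9% of all genes tested) and 2 fell (18.2%, against 7.74%). Icam1, the ligand to which leukocytes bind, rose by 0.87 ± 0.14 (adjusted p = 6.7e-06), from 146 to 266 (median 182) to 247 to 587 (median 351), also with the covariate (0.77 ± 0.21). Vcam1, the ligand of the alpha 4 integrin, rose by 0.43 ± 0.15. It lost its call without chow replicates 4 or 6 or sucrose/oleate replicate 2 (adjusted p up to 0.11), and stood at 0.28 ± 0.14 without sucrose/oleate replicate 2. The junction gene Cdh5 fell by 0.47 ± 0.15, but stood at -0.27 ± 0.19 with positive control scaling and at -0.28 ± 0.23 with the covariate, and passed with neither (adjusted p = 0.24 and 0.45). Pecam1, a general endothelial marker, did not pass (-0.10 ± 0.15).

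Among the chemokines, several of the largest differences came from 1 fat pad. Of 25 chemokine genes 8 rose (32%, against 28.9% of all genes tested) and 1, Ccl24, fell (4%, against 7.74%). Ccl7, a monocyte chemokine, was counted at 152 to 304 (median 226) against 75.1 to 187 (median 146) and rose by 0.72 ± 0.17, also with the covariate (0.83 ± 0.25). Cxcl10, an interferon-induced chemokine, rose by 1.31 ± 0.37, and Ccl3 by 0.87 ± 0.27. Ccl2, the main ligand of Ccr2, did not pass (0.49 ± 0.23), at 927 to 1295 (median 1072) against 263 to 1173 (median 758). Cxcl13, which draws B cells, had the largest difference that passed, 2.95 ± 0.87 (adjusted p = 0.0066), but it was 5490.3 in sucrose/oleate replicate 2 and no more than 181.7 in the other treated libraries, within the chow range of 13.95 to 191 (median 90.4). Without that library the differences were 0.14 ± 0.61 for Cxcl13, 0.54 ± 0.36 for the monocyte chemokine Ccl12 and 0.01 ± 0.24 for the platelet chemokine Ppbp, and none of the 3 passed (adjusted p = 0.87, 0.27 and 0.98). The same library held 2051 of S100a9, a neutrophil protein, against at most 120.2 in the others, and 199 of Il1b against at most 33.5. S100a9 passed with it (2.56 ± 0.80) and not without it (0.50 ± 0.62, adjusted p = 0.58).

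Among 18 chemokine receptors 5 rose (27.8%, again near the 28.9% of all genes) and 1 fell (5.56%, against 7.74%). The list's median of 0.08 turned to -0.08 with TMM scaling. Cxcr6, found on tissue T and natural killer cells, ran at 65.02 to 138 (median 84.3) against 30.9 to 62.8 (median 44.4) and rose by 1.13 ± 0.30. Every sucrose/oleate library lay above every chow library, and with the covariate Cxcr6 stood at 0.50 ± 0.43 and did not pass (adjusted p = 0.48). Ccrl1, a receptor that clears chemokines without signalling, fell by 0.99 ± 0.38; the call was lost in 10 of the 17 fits that left out 1 library, namely without chow replicates 2, 3, 6 or 7 or sucrose/oleate replicates 1, 2, 3, 4, 7 or 8 (adjusted p up to 0.069). Cxcr2, the neutrophil receptor, did not pass (1.42 ± 0.61) and stood at 0.21 ± 0.53 without sucrose/oleate replicate 2.

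Several sensors of microbes and damage rose. Of 18 Toll-like receptor and co-receptor genes 8 rose (44.4%, against 28.9% of all genes tested) and 2 fell (11.1%, against 7.74%). The list's median was 0.25 against 0.19 over all genes, and 0.07 with TMM scaling. Tlr1, which pairs with Tlr2 to bind bacterial lipopeptides, was counted at 131 to 274 (median 229) against 36.96 to 151 (median 78.9) and rose by 1.25 ± 0.23 (adjusted p = 3.3e-05), also with the covariate (1.14 ± 0.34). Tlr8 rose by 1.04 ± 0.24, Tlr2 by 0.68 ± 0.18 and the endotoxin co-receptor Cd14 by 1.01 ± 0.20. Ly86, another gene of this list, rose by 1.09 ± 0.22. Tlr4, the endotoxin receptor, did not pass: it was counted at 622 to 1058 (median 713) on sucrose/oleate and 527 to 789.8 (median 624) on chow (0.22 ± 0.13, adjusted p = 0.19). Tlr5, the flagellin receptor, fell by 0.61 ± 0.22, a call lost without chow replicates 2, 4 or 6 or sucrose/oleate replicates 2 or 7 (adjusted p up to 0.11). Among 10 cytosolic sensor and inflammasome genes 7 rose (70%, against 28.9% of all genes tested) and none fell. Casp1, the protease that matures interleukin 1 beta, ran at 923 to 1407 (median 1176) against 402 to 967 (median 698) (0.76 ± 0.18), and Tmem173, the DNA signalling protein STING, at 136 to 199 (median 169) against 79.9 to 126 (median 103) (0.70 ± 0.17) with no overlap. With the covariate Casp1 stood at 0.47 ± 0.27 and Tmem173 at 0.22 ± 0.23, and neither passed.

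In the NF-kappa B list 8 of 22 genes rose (36.4%, against 28.9% of all genes tested) and none fell. The list's median of 0.17 turned to -0.02 with TMM scaling. Tnfaip3, the enzyme A20 that switches the pathway off, was counted at 444 to 632 (median 518) against 238 to 335 (median 290.5) with no overlap and rose by 0.86 ± 0.13 (adjusted p = 2.4e-06; 0.73 ± 0.19 with the covariate). Nfkbia, the inhibitor I kappa B alpha, did not pass (-0.13 ± 0.11). Of 23 genes of the TNF family 5 rose (21.7%, against 28.9% of all genes tested) and 1 fell (4.35%, against 7.74%). Tnfrsf11a, the receptor RANK, ran at 240.3 to 379 (median 327) against 78.7 to 219.8 (median 142) and rose by 1.18 ± 0.19 (adjusted p = 6.7e-06), also with the covariate (1.07 ± 0.28). Tnf itself was low, at 14.1 to 54.4 (median 31.6) against 10.7 to 28.8 (median 22.1). It rose by 0.72 ± 0.26 (adjusted p = 0.026), and the call was lost with TMM scaling (adjusted p = 0.061) and without chow replicates 4 or 6 or sucrose/oleate replicates 1 or 3 (adjusted p up to 0.066). Fas, the death receptor, fell by 0.50 ± 0.16, and lost its call without chow replicate 4 (adjusted p = 0.0501).

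Among cytokine genes 3 ligands rose, of which the antagonist Il1rn was 1, the ligand Tslp fell and 15 receptors rose. Of 17 interleukin ligands tested 3 rose (17.6%, against 28.9% of all genes tested) and 1 fell (5.88%, against 7.74%). Il1rn, which encodes the antagonist of the interleukin 1 receptor, was counted at 653 to 1622 (median 1302) against 75.1 to 969 (median 475) and rose by 1.17 ± 0.33 (adjusted p = 0.0042; 0.95 ± 0.49 with the covariate, adjusted p = 0.25). Tslp, a ligand made by stromal cells, ran at 62.6 to 129.5 (median 96.9) against 106 to 154 (median 138) and fell by 0.50 ± 0.15, also with the covariate (-0.74 ± 0.23). Il6 (-0.42 ± 0.26), Il10 (0.25 ± 0.24) and Il1b (0.90 ± 0.46) did not pass, and their chow medians were 13.02, 9.80 and 22.1. Without sucrose/oleate replicate 2 Il1b stood at 0.01 ± 0.39. Of 31 cytokine receptors 15 rose (48.4%, against 28.9% of all genes tested) and 2 fell (6.45%, against 7.74%). Il13ra1, a chain of the receptor of interleukins 4 and 13, was counted at 498 to 784 (median 593) against 281 to 577 (median 339) and rose by 0.71 ± 0.11 (adjusted p = 2.8e-06). Crlf2, the receptor chain of Tslp, ran at 1274 to 1596 (median 1390.3) against 784 to 1132 (median 975) and rose by 0.54 ± 0.10 without overlap. Both passed with the covariate. Il10rb rose by 0.62 ± 0.13, from 1529.6 to 2673 (median 2259) to 2794 to 3744 (median 3623), and Il7r by 1.02 ± 0.28.

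Of 24 interferon response genes 8 rose (33.3%, against 28.9% of all genes tested) and 1 fell (4.17%, against 7.74%). The list's median was 0.25, against 0.19 over all genes tested. It was 0.06 with TMM scaling and -0.01 with the covariate. Irf8 and Irf5, transcription factors of myeloid cells, rose by 0.79 ± 0.18 and 0.75 ± 0.23, and Ifnar1, a receptor chain of type I interferons, by 0.29 ± 0.06 with counts of 1333 to 1481 (median 1389.5) against 1052 to 1249 (median 1130.0); Ifnar1 lost its call with TMM scaling (adjusted p = 0.11). Ifng did not pass (-0.10 ± 0.27) and was counted at 2.24 to 17.3 (median 9.48) and 5.68 to 14.3 (median 10.7), the level of the negative controls. None of the 9 MHC class II genes passed. H2-Ab1 stood at 0.39 ± 0.23 and H2-Eb1 at -0.26 ± 0.22. Of 15 class I and proteasome genes 3 fell (20%, against 7.74% of all genes tested), led by Cd1d1. Its product shows lipid antigens to natural killer T cells. Cd1d1 was counted at 3242 to 9144 (median 5007) against 5643 to 13758 (median 11433), with 7 of 9 treated libraries below every chow library, and fell by 1.04 ± 0.20 (adjusted p = 0.00012; -1.06 ± 0.31 with the covariate). Bcap31, a chaperone of the endoplasmic reticulum, fell by 0.51 ± 0.08 (adjusted p = 2.8e-06), at 3682 to 5302 (median 4003) against 4858 to 6619 (median 5976), and did not pass with positive control scaling (-0.30 ± 0.13, adjusted p = 0.063).

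Lymphocyte genes rose about as often as the genes tested as a whole. Of 24 T cell genes 7 rose (29.2%, against 28.9% of all genes) and none fell. Cd3d, a chain of the T cell receptor complex, was counted at 53.7 to 91.6 (median 65.4) against 25.98 to 45.4 (median 34.5) with no overlap and rose by 0.90 ± 0.22 (adjusted p = 0.0014; 0.93 ± 0.31 with the covariate, adjusted p = 0.064). Cd3e rose by 0.86 ± 0.33 and Cd8b1, a chain of the CD8 coreceptor, by 0.92 ± 0.33. The call of Cd3e was lost without chow replicates 2, 4, 5 or 8 or sucrose/oleate replicates 1, 5 or 7 (adjusted p up to 0.096), and that of Cd8b1 without chow replicate 8 or sucrose/oleate replicate 7 (adjusted p up to 0.094). With TMM scaling their adjusted p-values were 0.066 and 0.048. The other CD8 chain, Cd8a, did not pass (0.34 ± 0.33). None of 12 regulatory T cell and checkpoint genes passed, Foxp3 standing at 0.36 ± 0.29 and Pdcd1 at 0.71 ± 0.34. Among 16 natural killer and cytotoxic genes 6 rose (37.5%, against 28.9% of all genes tested) and 1 fell (6.25%, against 7.74%). Gzma, a granule protease, was counted at 35.6 to 177 (median 46.7) against 13.5 to 39.8 (median 27.5) and rose by 1.22 ± 0.26 (adjusted p = 0.00032), and Klrc1 and Klrd1, which form the receptor NKG2A and CD94, rose by 0.93 ± 0.24 and 0.73 ± 0.19. Kir3dl1 fell by 1.18 ± 0.33, with 106 in chow replicate 4 against a chow median of 23.1; without that library it stood at -0.72 ± 0.30 (adjusted p = 0.063).

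Of 14 B cell genes 4 rose (28.6%, against 28.9% of all genes) and none fell. These were Blnk (1.12 ± 0.22), Btk, Cd22 (0.96 ± 0.26) and Pou2f2 (0.59 ± 0.18), of which Blnk and Btk are also expressed by myeloid cells. Blnk was counted at 1116 to 2063 (median 1743) against 203 to 1233 (median 788). The defining B cell genes Ms4a1 (0.28 ± 0.42) and Cd79b (0.23 ± 0.37) did not pass, and Ms4a1 ran at 19.8 to 108 (median 60.4) against 23.9 to 83.9 (median 48.5). In the lymph node list 2 of 12 rose (16.7%, against 28.9% of all genes tested), Cd22 and Cxcl13. Of 4 mast cell and eosinophil genes 1 rose (25%, against 28.9% of all genes tested). This was Il1rl1, the interleukin 33 receptor (0.74 ± 0.19), while Kit (0.30 ± 0.21) and Fcer1a (0.32 ± 0.22) did not pass. Among 16 dendritic cell and costimulation genes 4 rose (25%, against 28.9% of all genes tested) and 2 fell (12.5%, against 7.74%). Cd83, a marker of activated antigen-presenting cells, was counted at 1002 to 2051 (median 1646) against 319.5 to 857 (median 704) with no overlap and rose by 1.34 ± 0.22 (adjusted p = 1.2e-05; 0.97 ± 0.32 with the covariate, adjusted p = 0.061), while the costimulatory ligand Cd80 did not pass (0.33 ± 0.19). Of 10 neutrophil genes 2 rose (20%, against 28.9% of all genes tested). These were S100a9 and Csf3r, the receptor of granulocyte colony-stimulating factor (0.68 ± 0.26). Csf3r lost its call without chow replicates 2, 3, 4, 6 or 8 or sucrose/oleate replicates 2 or 3 (adjusted p up to 0.27) and stood at 0.34 ± 0.23 without sucrose/oleate replicate 2.

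The remaining lists held few genes that passed. In those with a rise the share that rose was 11.5% to 21.4%, against 28.9% of all genes tested. In those with a fall the share that fell was 3.85% to 7.14%, against 7.74%. Of 16 JAK, STAT and SOCS genes Ptpn6 and Stat2 rose, Stat2 by 0.46 ± 0.16 and by 0.30 ± 0.15 without sucrose/oleate replicate 2, where it did not pass (adjusted p = 0.11). Of 14 cell death genes 3 rose and 1 fell, among them Bax, an activator of apoptosis (0.37 ± 0.09, 564 to 729 (median 699) against 413 to 642 (median 524)), which stood at 0.21 ± 0.08 with TMM scaling and 0.22 ± 0.13 with the covariate and passed with neither (adjusted p = 0.052 and 0.30). Of 26 transcription factors of blood cells 3 rose and 1 fell, Ikzf1 by 0.62 ± 0.16. Of 17 enzymes of iron, arginine and oxidant handling 3 rose and 1 fell, the rises being Nox4, Cybb, the phagocyte oxidase (1.02 ± 0.23), and Ctss, a lysosomal protease (0.92 ± 0.29). Nos2, the inducible nitric oxide synthase, did not pass (-0.22 ± 0.20), nor did Tfrc, the transferrin receptor (-0.28 ± 0.19). None of 8 epithelial genes passed.

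Of the 180 genes that passed, 21 belonged to none of the lists. Slamf7 was among them, and so was Cdkn1a, the cell cycle inhibitor p21, counted at 733 to 1026 (median 874) against 389 to 762 (median 624.6) (0.55 ± 0.12, and 0.71 ± 0.18 with the covariate). Il12rb2, a chain of the interleukin 12 receptor, rose by 1.03 ± 0.21 without overlap. Chosen after their values were seen, Msr1, a scavenger receptor for modified lipoproteins, rose by 1.24 ± 0.26 (810.0 to 1354 (median 1216) against 120.4 to 866 (median 466.4)), Gpr183, an oxysterol receptor, by 1.14 ± 0.20, Cd44, the hyaluronan receptor, by 0.99 ± 0.25, and Npc1, which carries cholesterol out of lysosomes, by 0.45 ± 0.13. Notch1, also chosen after its values were seen, fell by 0.56 ± 0.14, with 8 of 9 treated libraries below every chow library.

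The fat pads did not differ from chow to the same degree. Taking the median log2 difference from the chow mean over the 142 genes that rose, the sucrose/oleate libraries ran from 0.46 in replicate 6 to 0.98 in replicate 7, and the chow libraries from -0.55 in replicate 4 to 0.47 in replicate 7. Replicate 6 was the lowest sucrose/oleate library for 65 of these genes and exceeded every chow library for 58, while the other 8 did so for 91 to 128. Chow replicate 7 was the highest chow library for 89 of the 142 genes, and chow replicate 4 the lowest for 102. Since the genes were chosen by the comparison, these values describe the libraries only. Over all 491 genes the median SD between libraries was 0.295 on sucrose/oleate and 0.33 on chow on the log2 scale, and leaving out sucrose/oleate replicate 2 and chow replicate 4 gave 0.255 and 0.293. Without both libraries 102 of the 142 rises and 30 of the 38 falls passed.

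**Figure D4:**
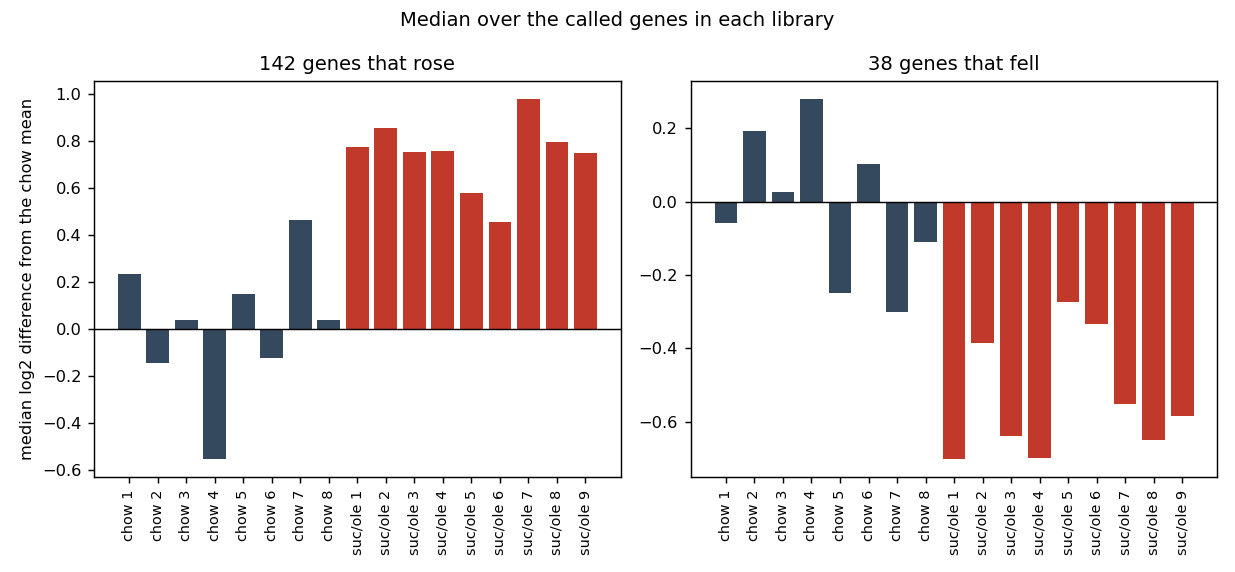
Bars give, for each library, the median log2 difference from the chow mean over the genes that rose (left) and the genes that fell (right); chow libraries are dark and sucrose/oleate libraries red. Sucrose/oleate replicate 6 and chow replicate 7 are nearly level for the genes that rose, at 0.46 and 0.47.

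Set against starch/oleate, the diet with the same fat and the other carbohydrate, 74 genes differed (15.1% of those tested), 25 higher (5.09%) and 49 lower (9.98%) on sucrose/oleate. This split turned with the scaling, to 49 higher and 31 lower with TMM scaling, 51 and 36 with DESeq2, 48 and 26 with the 9 reference genes that did not pass and 14 and 13 with positive control scaling. Of the 4 adipocyte genes 2 were higher on sucrose/oleate, against 5.09% of all genes tested. These were Cfd by 1.74 ± 0.43 (adjusted p = 0.0036) and Pparg by 0.73 ± 0.15, while Cd36 (0.10 ± 0.14) and Cebpb (0.00 ± 0.09) did not pass. Cd1d1 was higher by 1.36 ± 0.20. Cfd was counted at 1089 to 7957 (median 3518) on starch/oleate against 5851 to 32851 (median 9199) on sucrose/oleate. Cdh5 was higher by 0.87 ± 0.15. Marco was lower by 2.07 ± 0.51 (adjusted p = 0.0036), with 67.3 to 526.2 (median 90.5) on starch/oleate. Of 14 B cell genes 9 were lower on sucrose/oleate, against 9.98% of all genes tested, and none higher. Ms4a1 was among them, lower by 1.43 ± 0.40. The median of the B cell list was -0.77, against -0.14 over all genes tested. The count lower was 6 with TMM scaling, 0 with positive control scaling and 5 without sucrose/oleate replicate 6. The lymph node list, which shares members with the B cell list, had 8 of 12 lower, against the same 9.98%. Of 4 mast cell and eosinophil genes 3 were lower, again against 9.98%, among them Fcer1a by 1.05 ± 0.21 and Kit by 0.71 ± 0.20. The count lower was 1 with TMM or positive control scaling or with the covariate. Tfrc was lower by 1.57 ± 0.19. Of the genes that led against chow, Tgfbr1 differed by -0.04 ± 0.12, Plau by 0.02 ± 0.13, Lair1 by -0.07 ± 0.25 and Itgax by 0.05 ± 0.31, none of which passed. The genes named as different from starch/oleate passed with each library left out in turn. Cfd did not pass with the covariate, nor Ms4a1 with positive control scaling, nor Kit with either of these or with TMM scaling.

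Fewer genes passed against the palmitate diets. Against sucrose/palmitate, the diet with the same carbohydrate, 18 genes passed (3.67%), 7 higher (1.43%) and 11 lower (2.24%), a split of 20 and 20 with TMM scaling and 30 and 30 with DESeq2. Lair1 was higher on sucrose/oleate by 0.99 ± 0.26 (adjusted p = 0.028), at 500.4 to 914 (median 698) against 155 to 563 (median 366), and Klra8 by 0.89 ± 0.23. Tgfbr1 was higher by 0.61 ± 0.13, Runx1 by 0.60 ± 0.18, Tnfaip3 by 0.48 ± 0.13 and Plau by 0.47 ± 0.13. Marco was lower by 1.84 ± 0.51, Ccl24 by 1.00 ± 0.22 and C8g by 1.03 ± 0.29. The count depended on the setting: 1 gene passed with the control ratio as a covariate, 2 with the replicate number as a block and 0 with positive control scaling, where 111 genes had an unadjusted p under 0.05 in edgeR. Leaving out 1 library gave between 2 genes (without sucrose/oleate replicate 4) and 31 (without sucrose/oleate replicate 6), and the count moved by over 1.5 times without sucrose/palmitate replicates 1, 3, 4, 6 or 8 and without sucrose/oleate replicates 1, 4, 6, 7 or 8. Tgfbr1 and Ccl24 passed whichever library was left out, and Ccl24 was the gene that passed with the covariate, while the other 7 genes named here lost their call in 5 to 12 of the 17 fits. The control ratio of sucrose/palmitate ran from 2.99 to 3.56.

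Starch/palmitate shared neither ingredient, and its control ratio of 2.92 to 3.16 overlapped that of sucrose/oleate. Here 18 genes passed (3.67%), 8 higher on sucrose/oleate (1.63%) and 10 lower (2.04%), against 17 and 12 with TMM scaling and 0 and 8 with positive control scaling. Klra8 was higher by 0.93 ± 0.24 (adjusted p = 0.014), at 103 to 159 (median 132) on sucrose/oleate and 37.05 to 112 (median 68.3) on starch/palmitate. Tgfbr1 was higher by 0.63 ± 0.13 (adjusted p = 0.0022), at 1830.1 to 2940.5 (median 2461) and 1203 to 1803 (median 1561), and Pdgfb by 0.53 ± 0.12, Tnfaip3 by 0.50 ± 0.13, Itgb1 by 0.25 ± 0.06 and Ifnar1 by 0.24 ± 0.07. Lair1 differed by 0.66 ± 0.27 and Itgax by 0.97 ± 0.33, and neither passed. These comparisons share the sucrose/oleate libraries with the comparison to chow and are no separate evidence of it. Leaving out 1 library gave between 5 genes (without starch/palmitate replicate 3) and 29 (without starch/palmitate replicate 4). Klra8 and Itgb1 lost their call without starch/palmitate replicate 3, Tnfaip3 without starch/palmitate replicates 1 or 3, and Ifnar1 in 5 of the 16 fits. With positive control scaling none of these 6 genes passed against starch/palmitate.

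**Figure D5:**
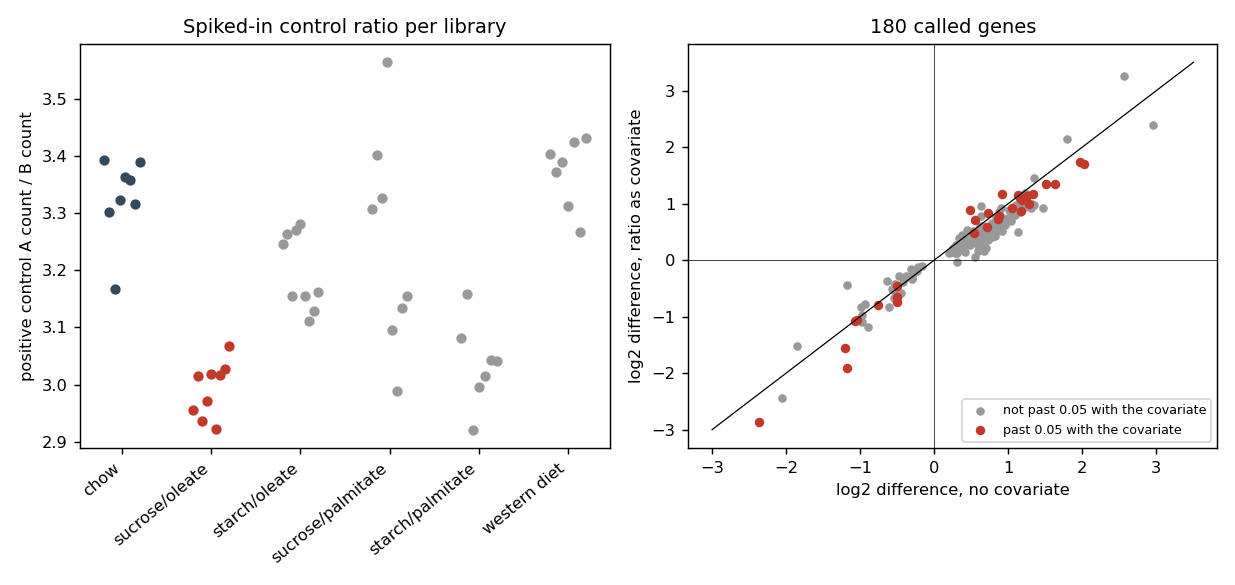
Left, the ratio of positive control A to B in each library of the 6 diets; the sucrose/oleate libraries lie between 2.92 and 3.07 and the chow libraries between 3.17 and 3.39. Right, the log2 difference from chow of the 180 called genes without the ratio (horizontal) and with it as a covariate (vertical), with a line of equality; red points passed with the covariate.

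Across every alternative run for the comparison with chow, 19 rises and 5 falls kept their call, counting 13 other ways of processing and each of the 17 libraries left out in turn. The rises were Ccl7, Cd9, Cdkn1a, Clec5a, Crlf2, Cx3cr1, Icam1, Il13ra1, Itgax, Klra8, Lair1, Plau, Ptpn6, Runx1, Slamf7, Tgfbr1, Tlr1, Tnfaip3 and Tnfrsf11a. The falls were Ccl24, Cd1d1, Cd209g, Cfd and Pparg. The fit with the covariate alone kept 20 rises and 9 falls. All of these fits used the same libraries, in which the control ratio and the diet cannot be told apart. A call kept in all of them therefore does not separate the ratio from the diet.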

How the data were processed

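The deposited table holds counts of barcodes per probe, whole numbers not scaled between samples, per the file headers and values; how the authors made them is not given in the sources used here. It covers 547 endogenous genes, 14 reference genes, 8 negative and 6 positive controls, and every column was mapped to a sample by its label. Names are those of the table; 544 of the 547 matched RefSeq and 13 have another current symbol (Emr1 is now Adgre1).

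Counts of all 48 samples entered 1 quasi-likelihood fit with a mean for each diet (edgeR 4.0.16 in R 4.3.3, functions glmQLFit and glmQLFTest). The library size was the geometric mean of the reference genes, and a gene was tested if its mean count reached 10. Tests were two-sided, with Benjamini-Hochberg adjustment over the 491 genes and a threshold of 0.05; SE is the log2 difference over the root of F. The control ratio was tested by exact permutation (scipy 1.17.1). Scaled counts below about the negative control mean cannot be told from background, and the number of samples limits the precision.

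In data simulated from the real levels, the fit of sucrose/oleate against chow called 67.2% of genes with a 1.5-fold change. It called 95.5% at 2-fold, 100% at 4-fold and 2.06% of the unchanged genes among 491. The simulation left the reference genes unchanged, drew each gene independently and had no library that stood apart. Its 2.06% is therefore not the rate of false calls in the real data. No 2 libraries of the 17 were copies (lowest chi-square per degree of freedom 4.76 over 136 pairs). Whether replicate numbers pair the samples could not be settled. Same-numbered libraries of the 2 groups had a mean correlation of 0.0759 over 8 pairs, from -0.48 to 0.44, and others -0.0059 over 64. The 8 values are too few and too spread to show or exclude a pairing.

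The comparison, gene lists and genes named were chosen with earlier results of these data known. The rule for named genes took those that passed with no overlap, the 12 highest and 12 lowest differences that passed, the 5 smallest p-values of each list, genes that passed with the control ratio as a covariate, and Tlr4, Tnf, Il1b, Il6, Il10, Ccl2, Nos2, Ifng and Foxp3. The text names 108 of the 178 genes it gave, a subset picked after the values were seen. A further 28 genes outside it were also chosen after their values were seen: C1qb, C1ra, C2, C3, Ccl3, Ccr2, Cd3e, Cd44, Cd79b, Cd80, Cd8a, Csf1r, Fcgr2b, Fn1, Gpr183, Map4k2, Mapk11, Ms4a1, Msr1, Nfkbia, Notch1, Npc1, Pecam1, Plaur, Syk, Tfrc, Tgfb1 and Tlr5. Alternatives were DESeq2 1.42.0, TMM scaling, positive control scaling, no filter, a minimum mean count of 30, subtraction of each library's mean negative control count, a block for the replicate number, a fit of the 2 groups alone, the control ratio as a covariate and each library left out. Added after seeing the data were scaling without Gusb, scaling to the 9 reference genes that did not pass, and leaving out sucrose/oleate replicate 2 with chow replicate 4 or with TMM scaling. The Western diet was fitted and not compared. Some genes of the panel are not reported here.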

Additional observations from a re-analysis of the deposited data

Results flagged for a closer look

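Within each group, the highest or lowest library was set against the rest with Dixon's criterion. Independent normal values meet it in about 1 in 20 groups. The scaled counts were not put on a log scale and the genes were chosen with their values seen, so that rate does not apply here. It was met in 44 of 272 gene and group pairs, 25 of them in sucrose/oleate replicate 2 and 8 in chow replicate 4. Sucrose/oleate replicate 2 stood above the rest of its group for C1qa (12347 against 6840.2 in the nearest library), C1qb (14600.4 against 7147), C1ra (3825 against 2865), C2 (1835 against 1183), C3 (14026 against 8163), Ccl12 (549.6 against 76.2), Cd163 (1228 against 556), Csf3r (299 against 115) and Cxcl13 (5490.3 against 182). It also did so for Cxcr2 (274 against 46.5), Fcgr1 (1147 against 446), Fcgr2b (3537 against 2267), Gzma (177 against 102), Icam1 (587 against 388), Il1b (199 against 33.5), Nfkbia (437 against 309), Pecam1 (3912 against 2783) and Pou2f2 (496 against 326). The remaining genes there were Ppbp (381 against 37.9), S100a9 (2051 against 120.2), Stat2 (470.1 against 314), Tlr4 (1058 against 782) and Vcam1 (672 against 382). Sucrose/oleate replicate 2 stood below the rest of its group for Fn1 (3103 against 6472 in the nearest library) and Il1rl1 (198 against 292). Chow replicate 4 stood above the rest of its group for Cfd (222161 against 110122 in the nearest library), Defb1 (221 against 31.4), Kir3dl1 (106 against 48.9) and Pparg (1826 against 1182). Chow replicate 4 stood below the rest of its group for Ccr2 (452 against 1029.8 in the nearest library), Fcgr1 (78.7 against 171), H2-Eb1 (616 against 978) and Ikzf1 (42.9 against 59.2). Sucrose/oleate replicate 6 stood above the rest of its group for Bcap31 (5302 against 4387 in the nearest library), Cd1d1 (9144 against 5818) and Fas (262 against 193). Sucrose/oleate replicate 6 stood below the rest of its group for Foxp3 (1.41 against 9.89 in the nearest library). Sucrose/oleate replicate 7 stood above the rest of its group for Cd8b1 (42.1 against 23.7 in the nearest library) and H2-Ab1 (724 against 567). Chow replicate 7 stood above the rest of its group for Fcer1a (58.8 against 37.7 in the nearest library) and Tlr2 (130.1 against 93.7). Sucrose/oleate replicate 5 stood above the rest of its group for Ccrl1 (90.8 against 60.5 in the nearest library). Chow replicate 1 stood above the rest of its group for Masp2 (75.7 against 40.5 in the nearest library). Chow replicate 5 stood above the rest of its group for Nox4 (172 against 127 in the nearest library). The part of these libraries in the results was not tested beyond the values given with each gene.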

How the results depend on the processing

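Against chow the count of 180 genes was 172 with the replicate number as a block, a pairing the samples do not settle. The count was 156 to 195 with 1 library left out and 31 with the control ratio as a covariate. Higher and lower calls split 142 to 38, and 106 to 76 with TMM scaling, 103 to 91 with DESeq2, 177 to 12 with positive control scaling, 171 to 25 without Gusb and 128 to 52 with the 9 reference genes that did not pass. Against starch/oleate 74 genes became 61 with the block, 27 with positive control scaling, 151 with only the 2 groups compared and 50 to 96 with 1 library left out. Against sucrose/palmitate 18 became 40 with TMM scaling, 60 with DESeq2, 0 with positive control scaling, 9 after background subtraction, 2 with the block, 1 with the covariate and 2 to 31 with 1 library left out. Against starch/palmitate 18 became 29 with TMM scaling, 40 with DESeq2, 8 with positive control scaling, 11 with the block, 30 with only the 2 groups and 5 to 29 with 1 library left out. The difference in control ratio ran from -0.357 to -0.325. The sign of the difference turned with TMM scaling for Cebpb (-0.10); with DESeq2 for Cebpb (-0.12) and Ppbp (-0.18); with positive control scaling for C3 (0.16), Cd36 (0.04), Fcgr2b (0.05), Ifng (0.12), Maf (0.13), Nfkbia (0.07) and Pecam1 (0.09). It turned after background subtraction for Ifng (0.20), with the covariate for Cd79b (-0.32), Cebpb (-0.06), Foxp3 (-0.18), H2-Ab1 (-0.18), Ms4a1 (-0.55), Pecam1 (0.02) and Tlr4 (-0.01), without Gusb for C3 (0.05) and Maf (0.01), without both libraries that stood apart for Ifng (0.01) and Il1b (0.00), without sucrose/oleate replicate 2 and with TMM scaling for Cebpb (-0.07), Cxcl13 (-0.01), Il1b (-0.14), Ppbp (-0.14) and Tlr4 (-0.01), and, in some of the fits with 1 library left out, for C3 (-0.21 to 0.02) and Ifng (-0.26 to 0.02). Of these genes only Cxcl13 and Ppbp had passed. The causes were not tested. Genes near the negative control mean, such as Ifng, Il6, Il10 and C9, are limited by background.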
